A study of Mus musculus with 2 samples.

Results

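Amino acid transporter genes were compared in the livers of mice given an adenovirus labelled as overexpressing miR-378 (Ad-378) and mice given a control adenovirus (Ad-Ctrl). They were all genes on the array whose symbol starts with Slc1a, Slc3a, Slc6a, Slc7a, Slc36a, Slc38a or Slc43a, the prefixes of 7 solute carrier families. The array carried 62 such genes, through 79 probes, of 20652 named genes in all. One of the 62, Slc7a6os, is named for lying opposite Slc7a6 and is no transporter by name, so 61 are transporters by name. For brevity, counts of transporters below include Slc7a6os. For each virus, livers of 5 male mice were pooled and the pool was hybridised to 1 array. The mice were 8 weeks old at injection into the tail vein, with 1e9 plaque forming units. The protocols in the labels give collection 2 weeks after injection for both pools, whereas the description of the Ad-378 pool gives 3 weeks. A difference in time and the virus therefore cannot be told apart. The labels name no strain, no genetic change and no cell type to which the virus is limited. The level of miR-378 itself was not analysed here.

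Solute carriers of these families move amino acids, and some of them neurotransmitters, creatine, taurine or betaine, across membranes. Hepatocytes take up amino acids from portal blood for gluconeogenesis, urea, glutathione and plasma protein synthesis. System A (sodium-coupled uptake of small neutral amino acids) and system N (glutamine, asparagine and histidine) are the classical hepatic uptake activities. Some carriers are heteromers, in which a heavy chain of family 3 brings a light chain of family 7 to the membrane. Several transporter genes are known targets of ATF4, the transcription factor of the amino acid response.

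Of the 62 genes, 38 were well above background on both arrays, which is 61.3%, against 69.2% of all named genes. A further 2 passed this detection limit only in the Ad-378 pool and 2 only in the Ad-Ctrl pool, while 20 passed it in neither. Signals below are processed scanner intensities, and each log2 difference is the Ad-378 value minus that of Ad-Ctrl after each array was divided by its 75th percentile, a signal of 695 in Ad-378 and 800.4 in Ad-Ctrl. Equal signals therefore correspond to a log2 difference of 0.20. With 1 array per group no difference has a replicate check, and no test or p-value is given. The error quoted for a difference is that of the scanner (1 SE, log2), with a median of 0.20 over the 38 genes. Of the hepatocyte genes that mark the labelled tissue, all 10 listed were well above background on both arrays, with albumin (Alb) at 157338 in Ad-378 and 159091 in Ad-Ctrl.

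Most of the transporters differed by less than 2-fold between the pools. Past 2-fold there were 2 of the 38 genes (5.26%) with the higher signal in the Ad-378 pool and 1 (2.63%) with the lower. Over all 14288 genes measured on both arrays the corresponding percentages were 2.83 and 4.51, so the share of transporters past 2-fold was near that of other genes. The 2 higher genes were Slc6a4 and Slc6a21 and the lower one was Slc1a4. The median log2 difference of the 38 was -0.08, against 0.04 over all genes, and 23 of the 38 (60.5%) had a negative difference, against 46.1% of all genes. At 1.5-fold, 6 transporters (15.8%) were higher and 7 (18.4%) lower, against 8.79% and 12.0% of all genes, and 65.8% lay within 1.5-fold, against 79.2% of all genes. Past 3-fold there was 1 transporter in each direction, where all genes had 0.742% higher and 1.41% lower. A difference beyond the 95% range of the scanner error was seen for 4 higher and 9 lower transporters (10.5% and 23.7%), against 16.3% and 17.7% of all genes.

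**Figure D1:**
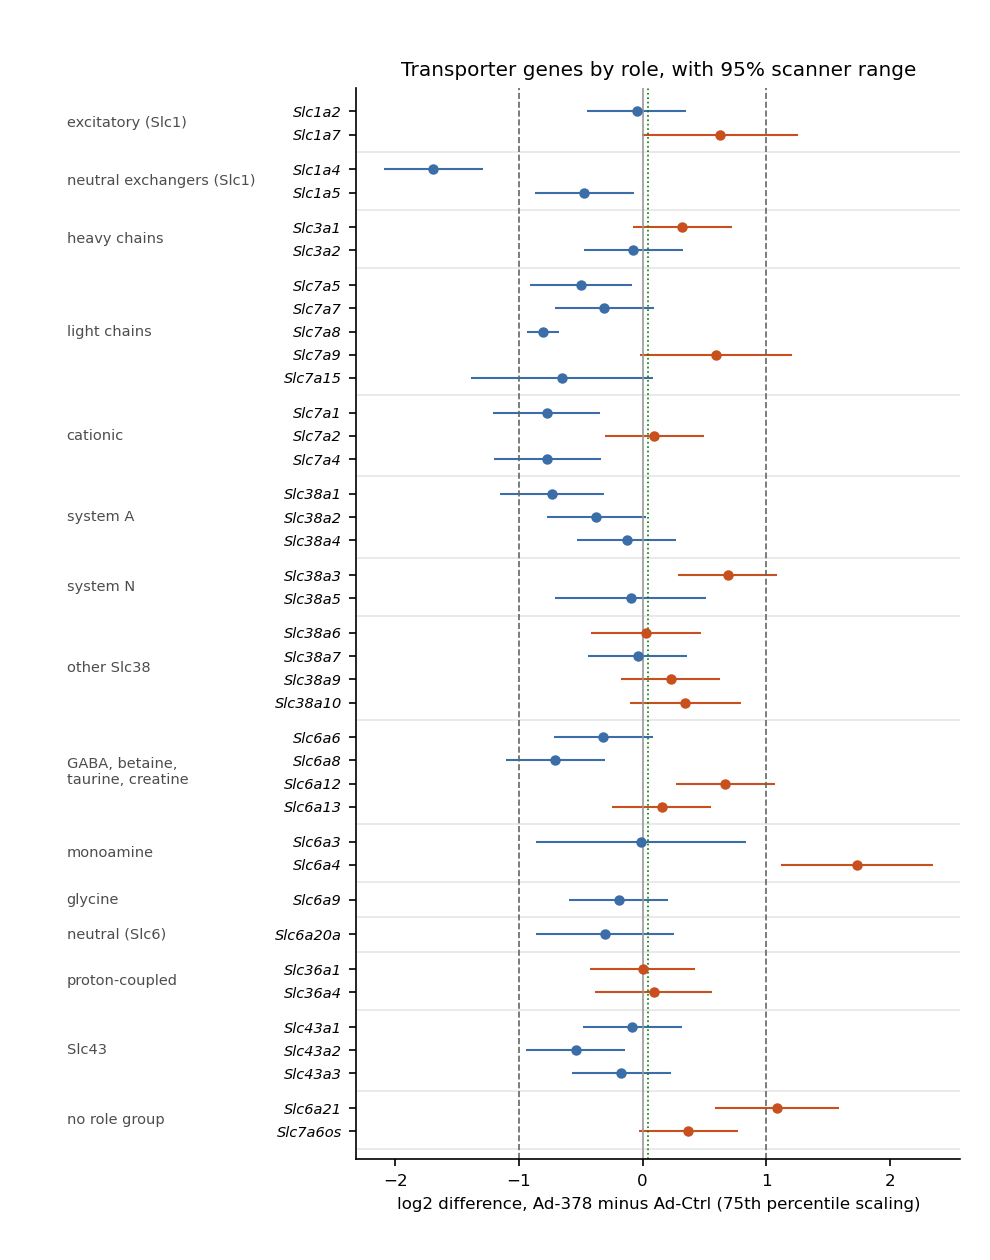
Log2 difference (Ad-378 minus Ad-Ctrl, x axis) of the 38 transporter genes well above background on both arrays, grouped by role. Bars are 95% ranges of the scanner error, with no spread between mice, dashed lines mark 2-fold and the dotted line marks the median of all genes (0.04). Slc1a4 (-1.69) lies left of the dashed lines and Slc6a4 (1.73) and Slc6a21 (1.08) lie right of them.

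Several lists of markers of other liver cells differed between the same pools. The lists were chosen with earlier results of these data known, so their counts are a description and no independent support. All 11 measured of 12 proliferation genes were lower by more than 2-fold, with summed signals of 2651 in Ad-378 and 15182 in Ad-Ctrl and a log2 difference of -1.61 for Mki67. For Kupffer cell and macrophage genes, 8 of the 9 measured had a negative difference, and the sums were 37824 in Ad-378 and 81507 in Ad-Ctrl, with -1.04 for Adgre1. Of stellate cell and fibroblast genes, all 8 measured of 9 listed had a negative difference, 5 of them past 2-fold, with sums of 27222 in Ad-378 and 62237 in Ad-Ctrl and -2.22 for Col1a1. In contrast, all 8 activated macrophage genes measured in both pools were higher by more than 2-fold, with sums of 6594 in Ad-378 and 782 in Ad-Ctrl. Their marker Nos2 had 442 in Ad-378 and 34.9 in Ad-Ctrl, and the other 2 of the 10 listed were detected in the Ad-378 pool only. Cholangiocyte genes had 5 of 6 positive, 2 past 2-fold, with sums of 5887 in Ad-378 and 3007 in Ad-Ctrl, although Krt19 was at -0.36. B and plasma cell genes had 5 of 5 positive, 2 past 2-fold. Of 7 T and NK cell genes 3 were past 2-fold downwards, with Cd3e at 0.02. Sinusoidal endothelium had 0 of 8 past 2-fold and a median of -0.19. Of 5 neutrophil genes 1 was past 2-fold downwards, and of 4 erythroid genes 1 upwards. Hepatocyte genes summed to 919040 in Ad-378 and 949770 in Ad-Ctrl, while 8 of the 10 had a positive log2 difference (median 0.17). All sums here are of processed signals before the arrays were scaled, whereas the log2 differences are taken after scaling. The part of these cells in the transporter differences was not tested, and in a pool of whole liver fewer cells of a type and less RNA per cell cannot be told apart.

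Slc1a4 (ASCT1), an exchanger of alanine, serine, cysteine and threonine, was the lowest in the Ad-378 pool relative to Ad-Ctrl among the 38 transporters detected on both arrays. Its signal was 2142 in the Ad-378 pool and 7973 in the Ad-Ctrl pool, a log2 difference of -1.69 (scanner error 0.20), or 3.23-fold lower. The difference was between -1.79 and -1.63 under every other setting computed. Slc1a4 had 1 probe, so averaging or choosing probes could not change it, nor could leaving out the background filter. No second probe was there as a check. Slc1a5 (ASCT2), the glutamine exchanger of the same family, had 396 in the Ad-378 pool and 632 in the Ad-Ctrl pool, a log2 difference of -0.47. A second Slc1a5 probe gave -0.33, which lay within the 95% range of the scanner error, unlike the first.

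The excitatory amino acid transporters of family 1 carry glutamate and aspartate with sodium. Slc1a2 (GLT-1), which in liver belongs to pericentral hepatocytes, was almost equal in the pools, with 3234 in Ad-378 and 3849 in Ad-Ctrl and a log2 difference of -0.05. A dimmer Slc1a2 probe gave -0.22. Slc1a7, known as a retinal glutamate transporter, had 33.7 in the Ad-378 pool and 25.2 in the Ad-Ctrl pool, near the limit of detection, with a log2 difference of 0.62 (scanner error 0.32). Slc1a3 and Slc1a6 were not well above background on either array.

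Slc1a1 (EAAT3), which takes up glutamate, aspartate and cysteine, was detected in the Ad-Ctrl pool only. Its probe was printed in 10 spots, of which all 10 were usable in the Ad-378 pool and 9 in the Ad-Ctrl pool. In the Ad-378 pool the spots ran between 2.50 and 9.68 (median 5.15) and 0 of 10 passed the detection limit. In the Ad-Ctrl pool they ran between 40.8 and 51.5 (median 45.7) and 9 of 9 passed that limit. Spots are repeats on 1 array per pool and share any error of that array. By processed signal the gene was at least 3.51-fold lower in the Ad-378 pool. This bound sets the Ad-Ctrl signal against the dimmest signal well above background on the Ad-378 array. Without background subtraction, on the deposited series matrix values, its log2 difference was -0.68, and after normexp background correction it was -0.51. The size therefore rests on how the background was treated.

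**Figure D2:**
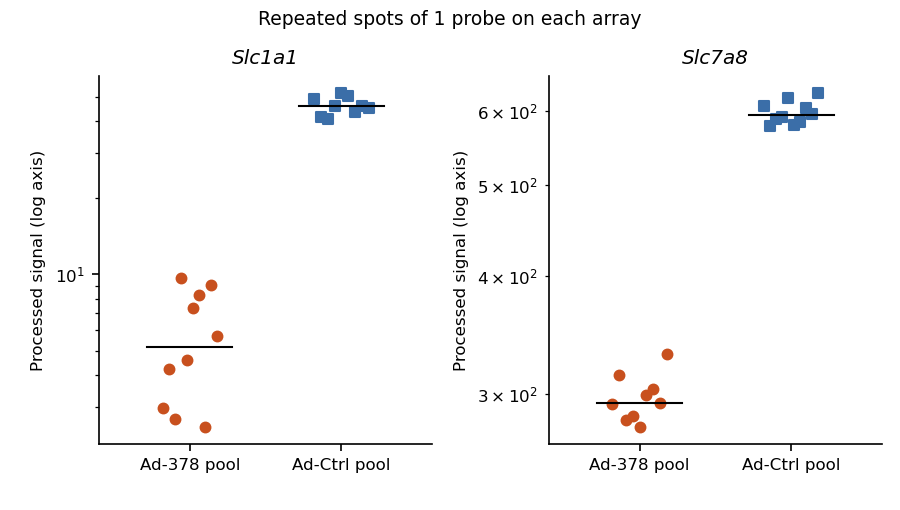
Processed signal (log axis) of each usable spot of the probes for Slc1a1 and Slc7a8, the transporters printed in 10 spots, with the median as a bar. Spots are repeats on 1 array, not mice. Medians were 5.15 (Ad-378) and 45.7 (Ad-Ctrl) for Slc1a1, and 293 (Ad-378) and 593 (Ad-Ctrl) for Slc7a8.

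Heavy chains of the heteromeric carriers were near equal in the pools. Slc3a2 (CD98 heavy chain), the partner of most light chains, had 3783 in the Ad-378 pool and 4589.9 in the Ad-Ctrl pool, a log2 difference of -0.08. Slc3a1 (rBAT), the partner of the cystine carrier light chain Slc7a9, had 1937 in the Ad-378 pool and 1788 in the Ad-Ctrl pool, a log2 difference of 0.32. Both lay inside the 95% range of the scanner error.

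Of the 10 light chains, 5 were well above background on both arrays, 4 with a negative difference (of which Slc7a15 was at 0.02 after normexp) and 1 with a positive one, and 0 were past 2-fold. Slc7a8 (LAT2), a carrier of neutral amino acids, had the smallest scanner error of the 38 genes. That error is divided by the square root of the spots, and an error shared by a whole array is not lessened by repeat spots. For Slc7a8, 9 usable spots in the Ad-378 pool ran between 277 and 330.5 and 10 in the Ad-Ctrl pool between 578 and 626. The log2 difference was -0.81 (scanner error 0.066), or 1.75-fold lower, and -0.65 after normexp. Slc7a5 (LAT1), which imports leucine and other large neutral amino acids, had 104 in the Ad-378 pool and 169 in the Ad-Ctrl pool. Its log2 difference was -0.50 at this probe and -0.01 at another, so the probes did not settle the size. Slc7a7, the light chain that exports cationic amino acids, had 808 in the Ad-378 pool and 1155 in the Ad-Ctrl pool, a log2 difference of -0.31 within the scanner range.

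Dimmer light chains had wider errors. Slc7a9 had 31.9 in the Ad-378 pool and 24.3 in the Ad-Ctrl pool, a log2 difference of 0.60 (scanner error 0.31), and Slc7a15 had 13.2 in the Ad-378 pool and 24.0 in the Ad-Ctrl pool, a log2 difference of -0.65 (scanner error 0.38). After normexp background correction these were 0.33 and 0.02. Slc7a11 (xCT), the cystine and glutamate exchanger that feeds glutathione synthesis, was detected in the Ad-Ctrl pool only. It had 10.3 in the Ad-378 pool and 27.6 in the Ad-Ctrl pool, at least 2.12-fold lower, but its log2 difference was -0.23 in the series matrix and -0.02 after normexp. Slc7a6, Slc7a10, Slc7a12 and Slc7a13 were not well above background on either array.

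Both transporters detected only in the Ad-Ctrl pool had a bound of at least 2-fold, and among all genes detected only there 37.6% did. In the other direction, Slc36a3 had 14.1 in the Ad-378 pool and 11.4 in the Ad-Ctrl pool, at least 1.07-fold higher. Slc38a11, also detected only in the Ad-378 pool, had 13.1 there and 15.1 in the Ad-Ctrl pool, and no fold can be given. Of all genes detected only in the Ad-378 pool, 14.7% had a bound of at least 2-fold.

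Sequence around the RefSeq start is shown for the 5 transporters past 2-fold, by value or by bound. The windows of Slc1a4, Slc7a11 and Slc6a21 hold the letters of the core of the ATF4 element, and those of Slc6a4 and Slc1a1 do not. Each runs 5′ to 3′ on the strand of the gene, with 250 bases before and 50 after the RefSeq start (GRCm38.p6). Capitals mark TGATGNAA on either strand, the core of the CCAAT enhancer-binding protein and ATF response element. The windows are chr11:20332664-20332963 (minus strand) for Slc1a4, chr3:50443564-50443863 (minus strand) for Slc7a11, chr7:45282623-45282922 (plus strand) for Slc6a21, chr11:76998347-76998646 (plus strand) for Slc6a4 and chr19:28834885-28835184 (plus strand) for Slc1a1.
Slc1a4: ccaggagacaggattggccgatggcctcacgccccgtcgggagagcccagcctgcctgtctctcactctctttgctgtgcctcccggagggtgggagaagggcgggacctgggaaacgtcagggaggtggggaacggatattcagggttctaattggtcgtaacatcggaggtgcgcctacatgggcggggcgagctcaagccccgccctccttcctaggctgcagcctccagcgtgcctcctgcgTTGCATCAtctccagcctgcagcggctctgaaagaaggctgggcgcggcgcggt
Slc7a11: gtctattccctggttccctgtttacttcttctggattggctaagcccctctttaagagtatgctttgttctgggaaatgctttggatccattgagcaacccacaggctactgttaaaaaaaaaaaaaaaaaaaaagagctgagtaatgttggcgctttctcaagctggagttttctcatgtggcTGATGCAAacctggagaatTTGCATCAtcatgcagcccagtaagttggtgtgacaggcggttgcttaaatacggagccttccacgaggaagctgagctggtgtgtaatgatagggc
Slc6a21: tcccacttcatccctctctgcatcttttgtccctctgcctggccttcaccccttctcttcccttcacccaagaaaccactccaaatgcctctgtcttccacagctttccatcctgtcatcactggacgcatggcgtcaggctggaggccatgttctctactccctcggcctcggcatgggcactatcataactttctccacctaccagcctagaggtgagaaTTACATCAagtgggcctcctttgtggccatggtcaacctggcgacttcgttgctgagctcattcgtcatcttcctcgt
Slc6a4: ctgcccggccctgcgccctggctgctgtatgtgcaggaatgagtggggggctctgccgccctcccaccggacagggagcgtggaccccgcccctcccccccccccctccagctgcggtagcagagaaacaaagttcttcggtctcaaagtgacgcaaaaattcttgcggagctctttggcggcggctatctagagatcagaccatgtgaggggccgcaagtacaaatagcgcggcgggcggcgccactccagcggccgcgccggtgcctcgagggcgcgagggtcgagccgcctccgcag
Slc1a1: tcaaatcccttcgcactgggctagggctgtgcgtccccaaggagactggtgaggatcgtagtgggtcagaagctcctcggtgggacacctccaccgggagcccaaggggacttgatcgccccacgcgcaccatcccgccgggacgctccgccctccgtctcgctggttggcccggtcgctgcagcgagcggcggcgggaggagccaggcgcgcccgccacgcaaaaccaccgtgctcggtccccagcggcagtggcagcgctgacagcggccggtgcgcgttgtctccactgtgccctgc

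In the Slc1a4 window the motif occupied bases 247 to 254, across the start site. The Slc7a11 window held it on both strands, at bases 185 to 192 and 204 to 211, and the Slc6a21 window at bases 223 to 230. The Slc6a21 window reads without a stop codon in a frame through the motif to its end. It may therefore be coding sequence and not promoter, which was not tested, and it stays in the counts below. RefSeq promoters were matched for 44 of the 62 genes, in 64 windows. The motif was found in 5 of these windows (7.81%), against 3.97% of all 32851 promoter windows. They belonged to 4 genes, which did not differ in 1 direction: Slc1a4 (-1.69) and Slc7a7 (-0.31) had negative log2 differences, Slc6a21 a positive one (1.08), and Slc7a11 was detected in the Ad-Ctrl pool only. The antioxidant element core TGACNNNGC was in windows of 8 genes (15.6% of windows, against 12.4% of all), and no gene had both motifs. A match is a description of the letters and not evidence of binding.

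Cationic amino acid transporters carry arginine, lysine and ornithine. Slc7a2 (CAT2), of which hepatocytes carry a low-affinity form and activated macrophages a high-affinity one, had 8126 in the Ad-378 pool and 8770.5 in the Ad-Ctrl pool. Its log2 difference of 0.09 lay within the scanner error. Slc7a1 (CAT1), the widely expressed form that is low in liver, had 48.9 in the Ad-378 pool and 96.4 in the Ad-Ctrl pool, a log2 difference of -0.78 (scanner error 0.22). Slc7a4, placed with this group by sequence, had 55.7 in the Ad-378 pool and 109 in the Ad-Ctrl pool, a log2 difference of -0.77 (scanner error 0.22). Both were dim, and after normexp they differed by -0.27 each. Slc7a3 and Slc7a14 were not well above background on either array.

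All 3 genes of system A had negative differences, as had 60.5% of the 38 transporters and 46.1% of all genes. None of the 3 was past 2-fold. Slc38a4 (SNAT4), the form most characteristic of liver, had 33731 in the Ad-378 pool and 42444 in the Ad-Ctrl pool, a log2 difference of -0.13. Slc38a2 (SNAT2), which is known to be induced by amino acid shortage, had 6782 in the Ad-378 pool and 10127 in the Ad-Ctrl pool, a log2 difference of -0.38. Each of these lay within the 95% range of the scanner error. Slc38a1 (SNAT1) had 66.3 in the Ad-378 pool and 127 in the Ad-Ctrl pool, a log2 difference of -0.74 (scanner error 0.21), but a second probe gave -0.24.

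System N had its main hepatic member higher in the Ad-378 pool. Slc38a3 (SNAT3), which takes up and releases glutamine in hepatocytes, had 14732 in the Ad-378 pool and 10516 in the Ad-Ctrl pool, a log2 difference of 0.69 (scanner error 0.20), or 1.61-fold higher. It lay beyond the 95% range of the scanner error and between 0.54 and 0.69 under all settings computed. Slc38a3 too had 1 probe, so averaging or choosing probes or leaving out the background filter could not change it. Slc38a5 (SNAT5) was dim, with 23.1 in the Ad-378 pool and 28.4 in the Ad-Ctrl pool, a log2 difference of -0.09. Gls2, the liver glutaminase of periportal hepatocytes, had a log2 difference of 0.71, and Glul, the glutamine synthetase of pericentral hepatocytes, -0.05.

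Other members of family 38 were near equal. Slc38a9, the lysosomal arginine sensor of mTORC1, had 743 in the Ad-378 pool and 731 in the Ad-Ctrl pool, a log2 difference of 0.23, and was the only one of 8 transporters with 2 or more detected probes whose probes differed in sign (-0.20 to 0.40). Slc38a7, a lysosomal glutamine exporter, had 527 in the Ad-378 pool and 624 in the Ad-Ctrl pool, a log2 difference of -0.04. Slc38a6 had a log2 difference of 0.03 and Slc38a10 of 0.34, and Slc38a8 was not well above background on either array. The proton-coupled Slc36a1, found on lysosomes, and Slc36a4 had log2 differences of 0.00 and 0.09, while Slc36a2 was well above background on neither array.

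**Figure D3:**
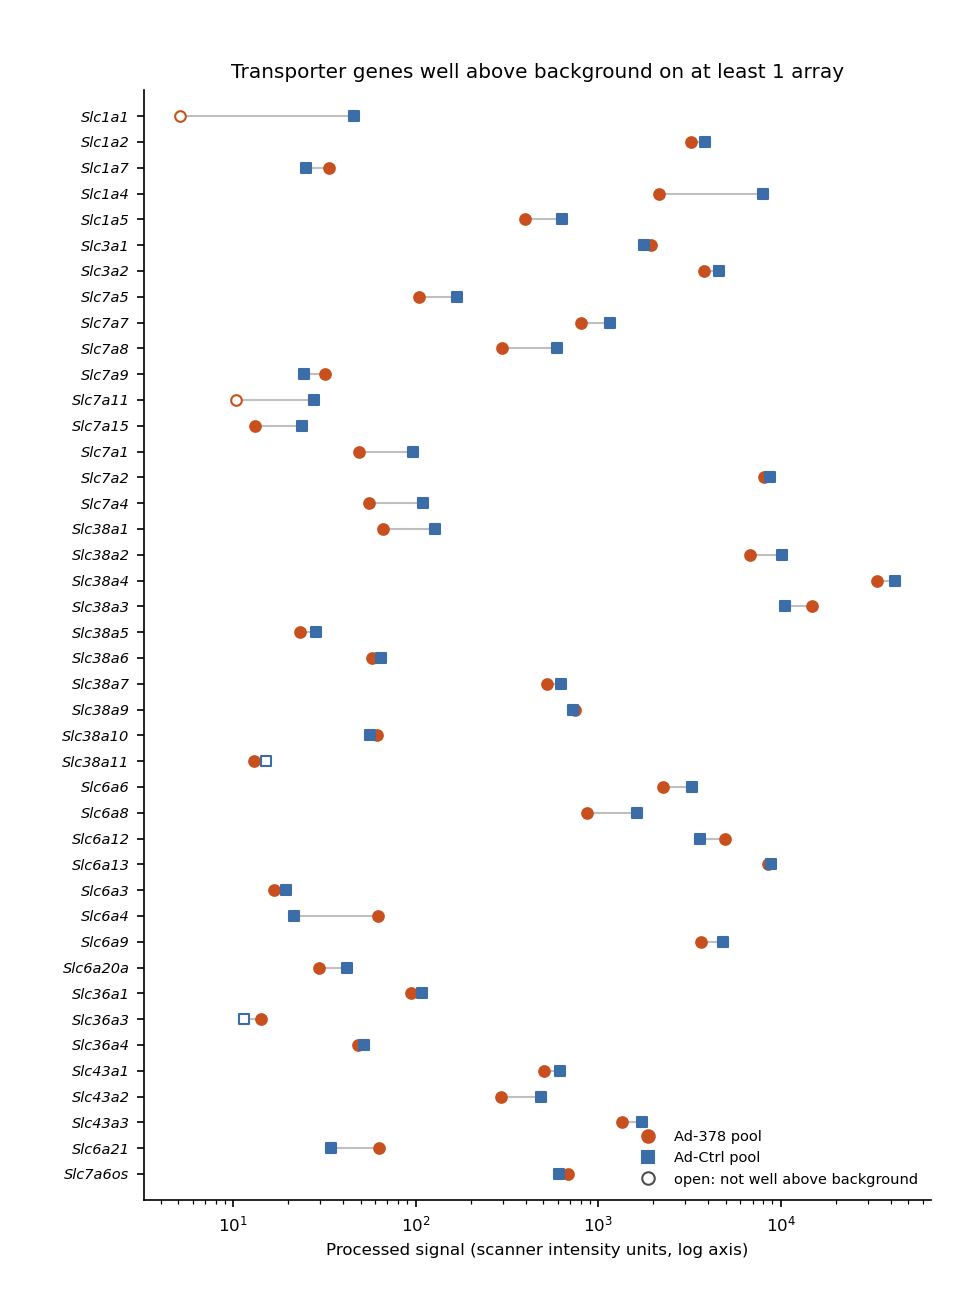
Processed signal (log axis) of the 42 transporter genes well above background on at least 1 array, in the Ad-378 pool (circles) and the Ad-Ctrl pool (squares). Open symbols were not well above background. Signals of different genes come from different probes and set no order between genes. Among the wide gaps are those of Slc1a1, Slc1a4 and Slc6a4.

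Osmolyte and creatine carriers of family 6 differed in direction. Slc6a12 (BGT1), the betaine carrier, had 4976 in the Ad-378 pool and 3607 in the Ad-Ctrl pool, a log2 difference of 0.67 (scanner error 0.20), or 1.59-fold higher. Slc6a8, the creatine carrier, had 871 in the Ad-378 pool and 1638 in the Ad-Ctrl pool, a log2 difference of -0.71 (scanner error 0.20), or 1.63-fold lower. Both lay beyond the 95% range of the scanner error and kept their direction under every setting computed. Each had 1 probe, so averaging or choosing probes or leaving out the background filter could not change it. Slc6a13 (GAT2), which takes up taurine and GABA in liver, had 8544 in the Ad-378 pool and 8826 in the Ad-Ctrl pool, a log2 difference of 0.16. The taurine carrier Slc6a6 had 2263 in the Ad-378 pool and 3249 in the Ad-Ctrl pool, a log2 difference of -0.32, inside the scanner range. Slc6a11, a carrier of GABA, was not well above background on either array.

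Slc6a4, the serotonin transporter, was the highest in the Ad-378 pool relative to Ad-Ctrl among those 38. It had 62.0 in the Ad-378 pool and 21.4 in the Ad-Ctrl pool, a log2 difference of 1.73 (scanner error 0.31), or 3.33-fold higher. It was dim in both pools, and the log2 difference was 0.91 in the series matrix and 0.77 after normexp, inside 2-fold. Slc6a3, the dopamine transporter, had 16.8 in the Ad-378 pool and 19.6 in the Ad-Ctrl pool, a log2 difference of -0.02, and Slc6a2, the noradrenaline transporter, was not well above background on either array. Slc6a21, a family 6 gene to which no role is given here, had 63.3 in the Ad-378 pool and 34.4 in the Ad-Ctrl pool, a log2 difference of 1.08 (scanner error 0.26). It too was inside 2-fold on the series matrix values (0.62), after normexp (0.56) and, at 0.99, under loess normalization.

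Slc6a9 (GlyT1), the glycine carrier, was near equal at both of its probes. The brighter had 3650.3 in the Ad-378 pool and 4806 in the Ad-Ctrl pool, and the log2 differences were -0.19 and -0.20. Among the neutral amino acid carriers of family 6, Slc6a20a, a carrier of proline, was detected on both arrays with 29.6 in the Ad-378 pool and 42.2 in the Ad-Ctrl pool, a log2 difference of -0.31. Slc6a7, Slc6a14, Slc6a15, Slc6a17, Slc6a18, Slc6a19 and Slc6a20b were well above background in neither pool.

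All 3 genes of family 43 had negative differences, as had 60.5% of the 38 transporters and 46.1% of all genes. Slc43a2 (LAT4), a uniporter of branched-chain amino acids and phenylalanine, had 292 in the Ad-378 pool and 488 in the Ad-Ctrl pool, a log2 difference of -0.54 (scanner error 0.20). Its relative Slc43a1 (LAT3) had 506 in the Ad-378 pool and 617 in the Ad-Ctrl pool, a log2 difference of -0.08. Slc43a3, a purine nucleobase carrier, had 1344 in the Ad-378 pool and 1744 in the Ad-Ctrl pool, a log2 difference of -0.17. Slc7a6os, the gene that is no transporter by name, had 679.5 in the Ad-378 pool and 606 in the Ad-Ctrl pool, a log2 difference of 0.37.

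**Figure D4:**
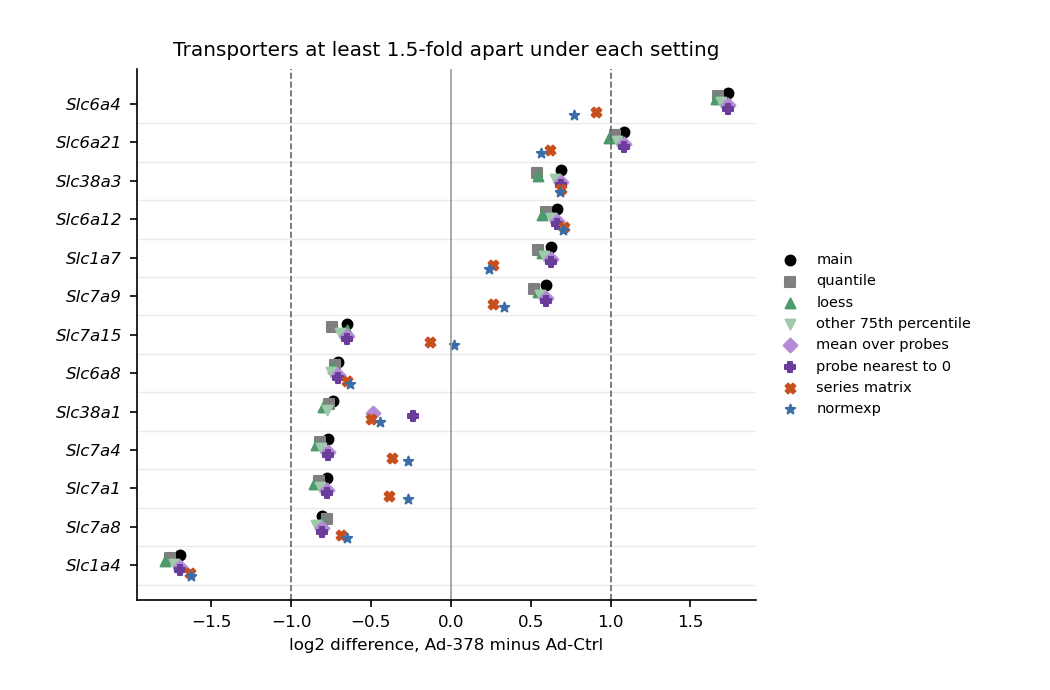
Log2 difference (Ad-378 minus Ad-Ctrl, x axis) of the 13 transporters at least 1.5-fold apart, one symbol per way of processing, with dashed lines at 2-fold. Slc1a4 stays between -1.79 and -1.63, whereas Slc6a4 (1.73) is at 0.91 in the series matrix and 0.77 after normexp. Slc7a15 changes sign after normexp.

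The transporters past 2-fold differed in brightness. Of the 38 genes, 15 had a mean signal at or above the 75th percentile of the array, with a median log2 difference of -0.13, 1 of them at least 2-fold lower and 0 higher. The 23 dimmer ones had a median of -0.04, with 2 at least 2-fold higher and 0 lower. Among all genes, 1.55% of the brighter ones were past 2-fold upwards and 2.53% downwards, and of the dimmer ones 4.0% and 6.31%.

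Genes of the amino acid response were split between directions. Of 30 listed, 28 were measured on both arrays, with 2 past 2-fold upwards and 5 downwards, against 2.83% and 4.51% of all genes. The median log2 difference was -0.09, against 0.04 over all genes. The gene of the factor itself, Atf4, had 12674 in the Ad-378 pool and 14807 in the Ad-Ctrl pool, a log2 difference of -0.02. The largest differences were those of Chac1 (-2.60), which degrades glutathione, the hormone gene Fgf21 (2.04), the lipoprotein receptor gene Vldlr (-1.44) and Aldh18a1 (-1.22), an enzyme of proline and ornithine synthesis. Asns (1.02), Ddit4 (-1.09) and Psat1 (-1.03) completed the 7. Psat1 makes a precursor of serine, Ddit4 restrains mTORC1 and Asns is asparagine synthetase. Atf4, Asns, Ddit4 and Psat1 were named after their values had been seen.

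Enzymes of amino acid metabolism in the liver had mostly small positive differences. Of 38 listed, 37 were measured on both arrays, 26 with a positive difference, and the median was 0.23, against 0.04 over all genes. Hepatocyte marker genes had a median of 0.17, and pericentral and periportal genes 0.18 each. Aadat, an aminotransferase of kynurenine and lysine breakdown, was the 1 gene at least 2-fold higher (1.49), and 0 were at least 2-fold lower. Gatm, which makes the precursor of creatine, had -0.65, beside -0.71 for the creatine carrier Slc6a8. Gamt, the other creatine synthesis gene of this list, had -0.24 (scanner error 0.20), and -0.18 at a second probe. Gatm and Gamt were named after their values had been seen. Of the 9 measured genes of glutathione synthesis and use, 4 had a positive and 5 a negative difference, 0 were past 2-fold, and the median was -0.01.

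**Figure D5:**
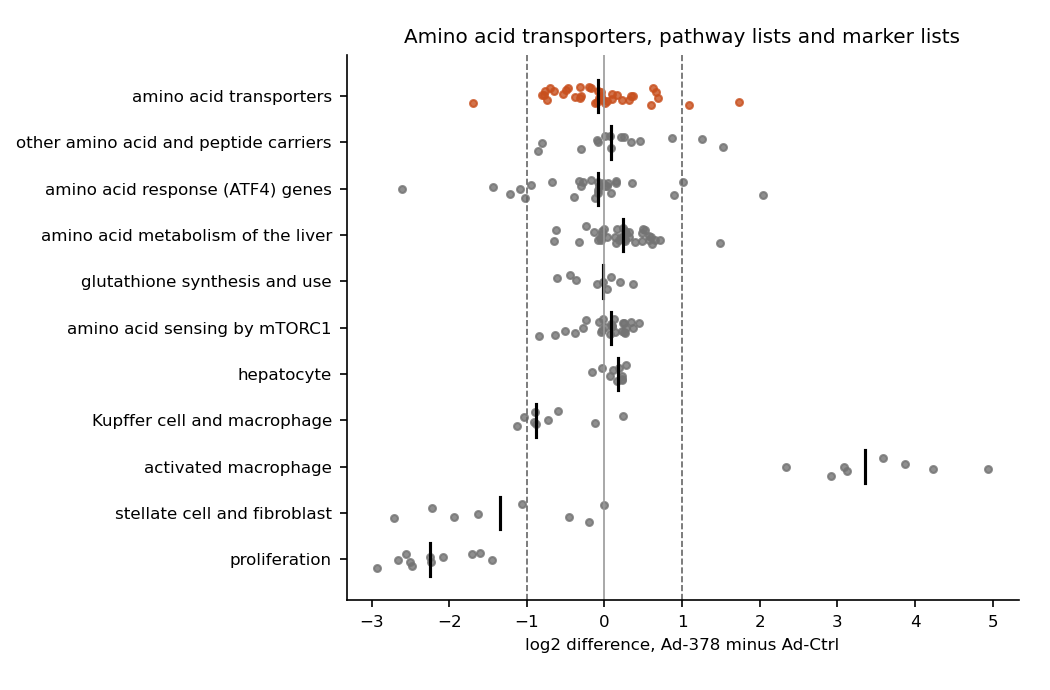
Log2 difference (Ad-378 minus Ad-Ctrl, x axis) of each gene measured on both arrays in the transporter set, 5 pathway lists and 5 marker lists, with the median as a bar and dashed lines at 2-fold. Transporters (median -0.08) lie mostly inside 2-fold, proliferation genes (-2.25) and stellate cell genes (-1.35) lie left, and activated macrophage genes (3.36) lie right.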

How the data were processed

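Total liver RNA was labelled with Cy3 and hybridised to Agilent 1-colour arrays, 1 array for each of the 2 pools, per the labels' protocols, which describe a blood RNA kit with globin removal. The deposited values are linear spot intensities. Feature Extraction 11.0.1.1, per the file headers, had subtracted background and removed spatial trends from each array (the submitters' processing notes name 9.1). The deposited series matrix intensities equal the raw median signal in 100% of values. Of 43020 gene spots, 28262 were well above background in Ad-378 and 27161 in Ad-Ctrl, and 0 spots were saturated.

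Outlier spots (123 per array) and controls were left out, spots of a probe were averaged on the log2 scale, and the 75th percentile over probes was subtracted. Probes were named where their accession, without version, matched 1 gene of a RefSeq table of GRCm38.p6 (27219 of 39401). The arrays' own build is mm9 and no probe coordinates are given. A gene took the brightest of its probes detected on both arrays. A probe was well above background where most usable spots were. The scanner error combined the deposited errors of both arrays, divided by the square root of the spots. It covers measurement on the array and not mice, and the number of arrays limits the precision.

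The members and lists were chosen with earlier results of these data known. Any transporter well above background on at least 1 array could be named, with up to 4 genes past 2-fold per pathway list. Some genes that no rule names are marked in the text as named after their values had been seen. One gene of these families is not reported here and stays in the counts. Lists are described by counts and medians, and the shares and median of all genes are given for comparison. Alternatives were quantile and loess normalization (span 0.3), that percentile over detected probes only, averaging a gene's probes, series matrix values, normexp (offset 50), no background filter and thresholds of 1.5-fold and 3-fold. The steps were tested on simulated data. Python 3.11.15, numpy 2.4.6, pandas 2.3.3, statsmodels 0.14.6, R 4.3.3 and limma 3.58.1 were used.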

Additional observations from a re-analysis of the deposited data

How the results depend on the processing

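The main values were 2 transporters at least 2-fold higher, 1 at least 2-fold lower and a median log2 difference of -0.08. The count of higher genes was 1 under loess normalization, 0 in the series matrix and 0 after normexp. The median was -0.14 under loess normalization, -0.015 after normexp and -0.22 with no filter on background, where 3 genes were at least 2-fold lower. With no filter all 62 genes enter, and a gene dim on both arrays takes the ratio of the lowest detected signals, which moved the median of all genes by -0.19. At 1.5-fold 6 genes were higher and 7 lower, and at 3-fold 1 was higher. Under loess normalization the median of all genes moved by -0.066, and after normexp by 0.024. The median of transporters minus that of all genes was -0.12 in the main setting. It was -0.11 under loess normalization and -0.079 after normexp. The cause of the other changes was not tested. Over all genes, the counts at least 2-fold higher and lower were 222 and 394 in the series matrix and 200 and 353 after normexp, against 405 and 645.

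Of the 38 single differences, 31 kept their sign in every setting (11 higher, 20 lower) and 7 did not, all at or below 0.65 in size. Of 304 recomputed single values, 9 moved by more than the 95% range of the scanner error. Both counts include values fixed in advance. With no background filter all 38 kept the main value. Averaging or choosing probes could change only the 8 genes with 2 or more detected probes. The percentile over detected probes only moved every gene by the same -0.04. The choice of the probe nearest to 0 was added after seeing the data. Normexp was fitted without spots whose local background was marked as an outlier. With them the fitted background mean was -10.6 in Ad-378 and -175 in Ad-Ctrl, against 3.76 in Ad-378 and 4.41 in Ad-Ctrl without, and the cause was not tested. No paired analysis was possible because there is 1 pool for each virus. Dim genes are limited by signal over background, so the bounds for Slc1a1 and Slc7a11 hold for the processed signal only.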

Other observations

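Genes that sense amino acids for mTORC1, the kinase that couples nutrients to growth, were near equal in the pools. Of 28 listed, 26 were measured on both arrays, 16 with a positive and 10 with a negative difference, and 0 were past 2-fold, where all genes had 2.83% higher and 4.51% lower. Their median log2 difference was 0.09, against 0.04 over all genes, with values between -0.85 and 0.44.

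Other amino acid and peptide carriers, outside the 7 families, numbered 21, of which 15 were measured on both arrays. Past 2-fold there were 2 with the higher signal in the Ad-378 pool and 0 with the lower, against 2.83% and 4.51% of all genes. Their median log2 difference was 0.08, against 0.04 over all genes, with values between -0.85 and 1.53. Slc17a8, a vesicular glutamate carrier, had 2892 in the Ad-378 pool and 1153 in the Ad-Ctrl pool, a log2 difference of 1.53, and a second probe gave 0.51. Slc25a29, a mitochondrial carrier of basic amino acids, had 145 in the Ad-378 pool and 70.0 in the Ad-Ctrl pool, a log2 difference of 1.26.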
